A study of Rattus norvegicus with 18 samples.

Results

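Autotaxin, encoded by Enpp2, and the genes around the lipid it makes were followed in rat liver across 3 diets. The 9 genes are Enpp2 itself, its paralogs Enpp1 and Enpp3, the lysophosphatidate receptor genes Lpar1, Lpar3 and Lpar6, and the lipid phosphatase genes Plpp1, Plpp2 and Plpp3. They were taken by gene symbol from the platform annotation and make up 9 of 14217 genes measured, with 13 of 31042 probe sets. Enpp2 was selected on its measured signal, which was higher on both fat diets than on chow, so its differences from chow are given as a description without a test. The other 8 genes were chosen for their place in the pathway, with earlier results of these data known.

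Liver RNA came from adult male Sprague Dawley rats that were fed for 8 weeks and fasted overnight before the tissue was taken. One group ate a high fat diet and was given an extract of pomegranate skin, PE, at a daily dose of 150 mg per kg (HFD+PE). The others ate the high fat diet alone (HFD) or chow. The labels describe the livers as normal in HFD+PE, fatty in HFD and normal in chow rats. Each group had 6 arrays, and no group analysed here received the extract with chow. In each group 1 pair of arrays had 0 probe sets over 2 log2 units apart, against 18 to 109 in the other 150 pairs of arrays. The pairs were HFD+PE 3 and 4, HFD 1 and 2, and chow 3 and 4. Each was averaged and counted as 1 animal, an inference that left n = 5 animals per group. Other measures set them apart less clearly. The SD of the difference between arrays was 0.2598, 0.1168 and 0.2153 in these pairs, and 0.2596 between HFD 3 and HFD 5. Equal signals made up 18.1%, 42.93% and 20.24% of probe sets, and 20.93% between chow 6 and HFD+PE 6. Values are log2 signals, with 1 unit a doubling, as deposited to 1 decimal; a level of one probe set cannot be set against that of another.

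Autotaxin is a secreted enzyme that removes choline from lysophosphatidylcholine, an abundant plasma lipid, and so releases lysophosphatidate (LPA). LPA acts on G protein-coupled receptors of the LPAR family, whose signals run through several G proteins. The PLPP proteins are membrane phosphatases that face outwards and end the signal by removing the phosphate. Hepatocytes and adipocytes both make autotaxin, and the sinusoidal endothelium takes it up from the blood.

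All 8 measured hepatocyte markers lay above the level of genes that liver should lack, which was set as the 90th percentile (5.29) of 28 measured genes of other tissues. The arrays fell into 2 sets by hybridization controls, RNAs added before hybridization, with a mean control level of 12.35 to 12.92 in the high set (5 arrays) and of 11.40 to 11.84 in the low set (13 arrays). Of the 5 arrays in the high set, 2 were HFD+PE, 0 HFD and 3 chow, and the differences were therefore also computed within each set that held both groups. The low set held 4 HFD+PE, 5 HFD and 3 chow animals, and the high set 2 HFD+PE and 3 chow animals. Chow 3 and HFD+PE 3 fell in the high set, chow 4 and HFD+PE 4 in the low set. The sets therefore share animals and are not independent. RNA position, read as the GAPDH 3′ minus 5′ control signal, spanned 2.4 to 3.4 on HFD+PE arrays, 2.1 to 3.2 on HFD arrays and 2.1 to 3.2 on chow arrays. Read from the beta-actin controls, it spanned 3.6 to 4.3, 3.1 to 4.0 and 3.3 to 4.1 in the same order.

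Enpp2 was higher in every animal of both fat diets than in any chow animal. Its log2 signals were 11.9, 12.2, 12.2, 11.9 and 12.2 in HFD+PE livers, 11.6, 12.2, 12.2, 11.9 and 11.9 in HFD livers, and 11.4, 10.8, 11.5, 11.4 and 11.3 in chow livers. The HFD+PE and HFD groups overlapped broadly, and the lowest HFD animal stood 1 rounding step of 0.1 above the highest chow animal. The means were 12.08 ± 0.16 in HFD+PE, 11.96 ± 0.25 in HFD and 11.28 ± 0.28 in chow livers (SD, n = 5 each).

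The difference of HFD+PE minus chow was 0.80 (SE 0.14), or 1.74-fold, and that of HFD minus chow was 0.68 (SE 0.14), or 1.60-fold. Of all genes, 0.682% had HFD+PE groups wholly above chow and 0.309% had HFD groups wholly above chow; nothing is read from these shares, since this pattern chose Enpp2. Within the low control set the differences were 0.73 (SE 0.14) for HFD+PE minus chow and 0.59 (SE 0.13) for HFD minus chow. Within the high set, with 2 HFD+PE and 3 chow animals, HFD+PE minus chow was 0.83 (SE 0.27). The lowest chow animal, chow 2, belongs to the high set, and without it the differences were 0.68 and 0.56.

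Enpp2 on the high fat diet with and without the extract was compared as HFD+PE minus HFD. This difference did not itself choose the gene, but the choice required both fat diets to be above chow. A gene returned to the chow level by the extract could not have been chosen, so this test is not independent of the choice. The difference in Enpp2 was 0.12 (SE 0.14, 95% confidence interval -0.17 to 0.41), with 3 of 5 HFD+PE animals above the HFD mean. It did not pass in limma (adjusted p = 0.993 over all genes; exact permutation p = 0.683, two-sided). The interval leaves room for a rise of 0.41 or a fall of 0.17 on the log2 scale.

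**Figure D1:**
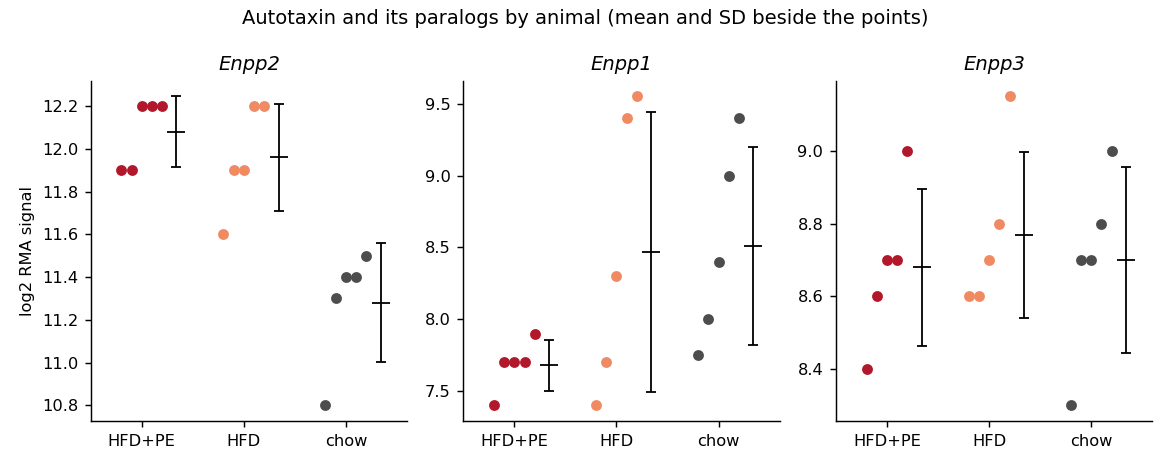
Log2 RMA signal of Enpp2, Enpp1 and Enpp3 (y axes, which do not start at 0) in each of 5 animals of the HFD+PE, HFD and chow groups; points are animals, and the bar beside them gives the mean and SD. Enpp2 animals on the fat diets lie at 11.6 to 12.2 and chow animals at 10.8 to 11.5, while Enpp1 spreads from 7.4 to 9.55 in HFD and from 7.4 to 7.9 in HFD+PE livers.

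Enpp1 encodes a membrane enzyme that cuts ATP to AMP and pyrophosphate and, unlike autotaxin, acts mainly on nucleotides. Its log2 signals were 7.9, 7.7, 7.4, 7.7 and 7.7 in HFD+PE livers, 9.55, 7.7, 9.4, 7.4 and 8.3 in HFD livers, and 9.4, 9.0, 7.75, 8.0 and 8.4 in chow livers. The HFD+PE animals clustered at the low end, whereas HFD and chow animals each reached 9 or more in 2 of 5 cases, and all 3 groups overlapped.

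The SD of Enpp1 was 0.18 in HFD+PE, 0.97 in HFD and 0.69 in chow livers. Its within-diet SD of 0.70 exceeded that of 99.1% of genes, where the median gene had 0.17. No test of the difference in spread was made.

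Enpp1 averaged 7.68 in HFD+PE against 8.47 in HFD livers, a difference of -0.79 (SE 0.38, 95% confidence interval -1.59 to 0.01), and the mean of HFD livers was above 5 of 5 HFD+PE animals. This did not pass in limma (adjusted p = 0.993; exact permutation p = 0.159). Against chow, at 8.51, the HFD+PE difference was -0.83 (SE 0.38, interval -1.63 to -0.03), again with 5 of 5 animals below the chow mean. It did not pass over all genes (limma adjusted p = 0.432), although the unadjusted p was 0.0427 and the exact permutation p was 0.0159.

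The HFD+PE minus chow value for Enpp1 was -0.36 (SE 0.42) within the low control set and -1.18 (SE 0.50) within the high set. The high set holds chow 1 and chow 2, both at or above 9. HFD minus chow was -0.04 (SE 0.38, interval -0.84 to 0.76; limma adjusted p = 0.982) and took the opposite sign, 0.44, within the low set. The part of the control sets in these values was not tested.

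Enpp3 encodes a further ectoenzyme that cuts nucleotides and nucleotide sugars, and in humans its protein, CD203c, marks basophils. It averaged 8.68 ± 0.22 in HFD+PE, 8.77 ± 0.23 in HFD and 8.70 ± 0.25 in chow livers (SD, n = 5 each). Single animals ran from 8.4 to 9.0, from 8.6 to 9.15 and from 8.3 to 9.0 in these groups, which overlapped almost fully. The differences were -0.09 for HFD+PE minus HFD (95% confidence interval -0.38 to 0.20), -0.02 for HFD+PE minus chow (-0.31 to 0.27) and 0.07 for HFD minus chow (-0.22 to 0.36). Of the 6 measured basophil and mast cell markers, 5 (Cpa3, Fcer1a, Ms4a2, Tpsb2 and Kit) were at the level of genes of other tissues.

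Of the 3 receptor genes, only Lpar6 was above the level of genes of other tissues. Lpar6 encodes a receptor that prefers LPA species with 2-acyl chains and is known in humans for its part in hair growth. Its log2 signals were 7.7, 8.4, 8.6, 8.8 and 8.7 in HFD+PE livers, 8.3, 8.1, 8.4, 8.2 and 7.9 in HFD livers, and 8.3, 8.5, 8.2, 8.5 and 8.3 in chow livers. The HFD+PE group held both the lowest animal, HFD+PE 1, and the 3 highest.

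The Lpar6 difference was 0.26 for HFD+PE minus HFD (SE 0.16, 95% confidence interval -0.09 to 0.61; limma adjusted p = 0.993), with 4 of 5 HFD+PE animals above the HFD mean. Within the low control set, which leaves out HFD+PE 1, it was 0.47 (SE 0.11, limma adjusted p = 0.993). HFD+PE minus chow was 0.08 (SE 0.16), but 0.32 (SE 0.13) within the low set and -0.23 (SE 0.25) within the high set. HFD minus chow was -0.18 (SE 0.16).

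Lpar1 and Lpar3 encode receptors of the EDG family. Lpar1 is the receptor most studied in fibrosis, and Lpar3 is known from the uterus, where it acts in embryo implantation. Lpar1 animals ran from 3.5 to 3.9 in HFD+PE, from 3.6 to 3.85 in HFD and from 3.7 to 4.1 in chow livers. Lpar3 animals ran from 3.3 to 4.5, from 3.8 to 4.0 and from 3.6 to 4.1 in the same groups. Both genes were below the limit of 5.29, so their signals may be background, and whether they stand above it was not tested.

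The HFD+PE minus chow difference in Lpar1 was -0.22 (SE 0.10, unadjusted p = 0.0388, limma adjusted p = 0.419; exact permutation p = 0.119). A second probe set of Lpar1 gave 0.01 for the same comparison (SE 0.09) and 0.14 for HFD+PE minus HFD, where the first gave -0.11, so the probe sets disagreed. The differences in Lpar3 were 0.00 for HFD+PE minus HFD and 0.01 for HFD+PE minus chow and for HFD minus chow (SE 0.16 each).

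**Figure D2:**
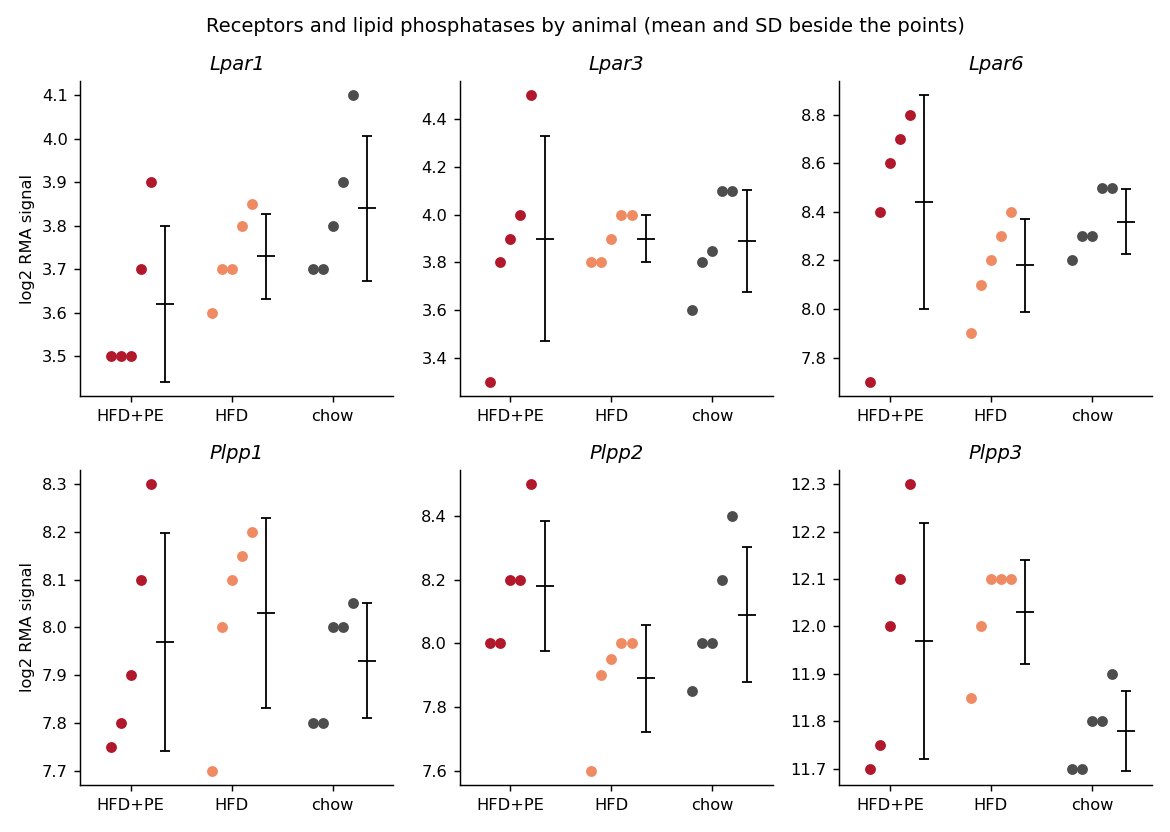
Log2 RMA signal of 3 receptor and 3 lipid phosphatase genes (y axes, which do not start at 0) in each of 5 animals of the HFD+PE, HFD and chow groups; points are animals, and the bar beside them gives the mean and SD. Plpp3 chow animals lie at 11.7 to 11.9 and HFD animals at 11.85 to 12.1, while Plpp2 HFD animals, at 7.6 to 8.0, do not pass the lowest HFD+PE animals at 8.0.

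Among the lipid phosphatase genes, Plpp3 had the smallest p against chow. Its enzyme dephosphorylates LPA and sphingosine 1-phosphate and is prominent in endothelium. Its log2 signals were 12.3, 12.1, 11.75, 11.7 and 12.0 in HFD+PE livers, 11.85, 12.1, 12.0, 12.1 and 12.1 in HFD livers, and 11.7, 11.8, 11.7, 11.8 and 11.9 in chow livers. In HFD livers 5 of 5 animals lay above the chow mean and in HFD+PE livers 3 of 5 did, and the HFD+PE animals covered the whole range of both other groups.

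The Plpp3 difference of HFD minus chow was 0.25 (SE 0.10, 95% confidence interval 0.03 to 0.47), or 1.19-fold. It had an unadjusted p of 0.0276 and an exact permutation p of 0.0159, but did not pass over all genes (limma adjusted p = 0.611). The other 2 probe sets of Plpp3 gave 0.19 (SE 0.09) and 0.21 (SE 0.14) for the same comparison, and 0.08 and 0.14 for HFD+PE minus chow. HFD+PE minus chow was 0.19 (SE 0.10, interval -0.03 to 0.41, limma adjusted p = 0.544). It was 0.08 (SE 0.13) within the low control set and 0.33 (SE 0.15) within the high set. HFD+PE minus HFD was -0.06 (SE 0.10, interval -0.28 to 0.16). With both fat diets pooled against chow, Plpp3 was at 0.22 (SE 0.09, unadjusted p = 0.0255, limma adjusted p = 0.334; exact permutation p = 0.0293).

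Plpp2 encodes another enzyme of the same family, and among the phosphatase genes it had the smallest p for HFD+PE minus HFD. Its log2 signals were 8.2, 8.0, 8.0, 8.2 and 8.5 in HFD+PE livers, 7.95, 8.0, 7.6, 7.9 and 8.0 in HFD livers, and 8.2, 8.0, 7.85, 8.0 and 8.4 in chow livers. No HFD animal was above the lowest HFD+PE animals, and the chow animals spanned most of both groups. The difference of HFD+PE minus HFD was 0.29 (SE 0.12, 95% confidence interval 0.04 to 0.54), with 5 of 5 animals above the HFD mean. It had an unadjusted p of 0.0259 and an exact permutation p of 0.0476, and did not pass over all genes (limma adjusted p = 0.993). HFD minus chow was -0.20 (SE 0.12, limma adjusted p = 0.730) and HFD+PE minus chow was 0.09 (SE 0.12, limma adjusted p = 0.874).

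Plpp1, a broadly expressed member of the same family, averaged 7.97 ± 0.23 in HFD+PE, 8.03 ± 0.20 in HFD and 7.93 ± 0.12 in chow livers (SD, n = 5 each). The differences were -0.06 for HFD+PE minus HFD (95% confidence interval -0.30 to 0.18), 0.04 for HFD+PE minus chow (-0.20 to 0.28) and 0.10 for HFD minus chow (-0.14 to 0.34). A second, dimmer probe set gave -0.12, 0.00 and 0.12 in the same order.

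Across the tested genes of the pathway, 0 passed an adjusted p of 0.05 in limma in any of 4 comparisons, as did 0% of all 14217 genes. At an unadjusted p under 0.05, there was 1 of 9 genes for HFD+PE minus HFD (Plpp2), against 2.70% of all genes. There were 2 of 8 for HFD+PE minus chow (Enpp1 and Lpar1), against 11.1% of all genes. There was 1 of 8 for HFD minus chow (Plpp3), against 7.65%, and 1 of 8 for both fat diets minus chow (Plpp3 again), against 11.7%. The median difference of the tested genes was -0.06, 0.03, -0.01 and -0.02 in these comparisons, and that of all genes was 0.00, 0.01, 0.00 and 0.01. The comparisons share animals, so the counts are not independent of each other. The labels call the arrays biological replicates, and all tests measure the spread between animals of 1 experiment.

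**Figure D3:**
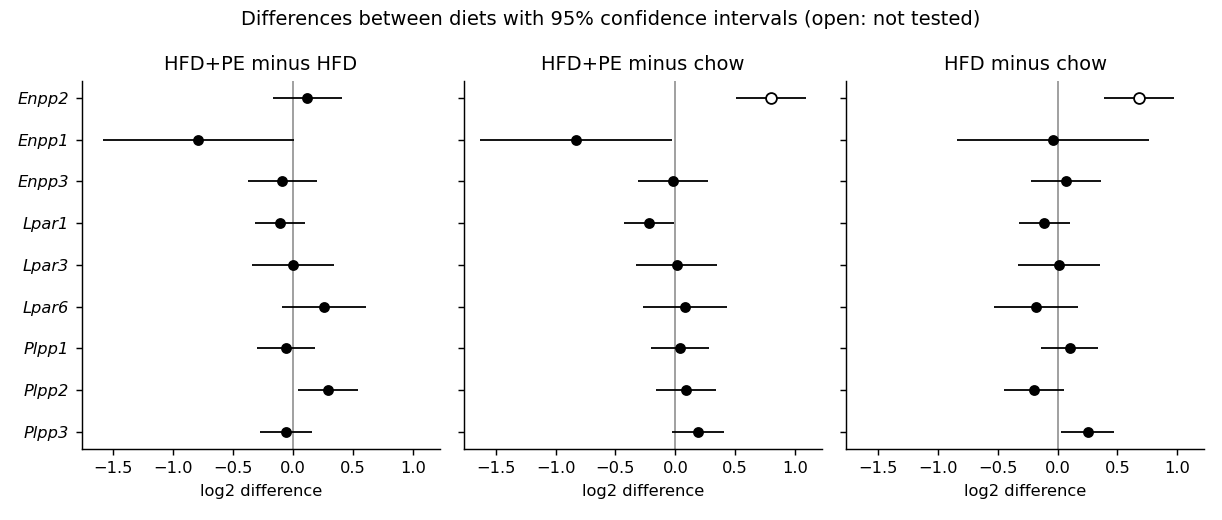
Log2 difference (x axis) of each of the 9 genes for HFD+PE minus HFD, HFD+PE minus chow and HFD minus chow; points are differences of means over 5 animals per group, lines are 95% confidence intervals from limma, and open points mark Enpp2 against chow, which was not tested. The Enpp1 intervals are the widest, from -1.59 to 0.01 and from -1.63 to -0.03 for the HFD+PE comparisons, and the other filled points lie between -0.22 and 0.29.

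The wider pathway was read from 9 lists of 97 genes, of which 82 were measured, and 0 of the 82 passed in limma in any comparison. Among other enzymes of the ENPP family, Enpp5 was at 0.41 for both fat diets minus chow (SE 0.26), or 0.18 without chow 3-4. Enpp4 and the dim Enpp6 differed by at most 0.10 in the comparisons with their smallest p. Of the other receptor genes, Lpar2, Lpar4 and P2ry10 were measured and all 3 were at the level of genes of other tissues. Lpar2 was at 0.30 (SE 0.09, unadjusted p = 0.00443, limma adjusted p = 0.222) for HFD+PE minus chow and Lpar4 at 0.22 (SE 0.10) for HFD+PE minus HFD.

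Genes for other sources of LPA had a median of 0.06 over 8 measured genes for HFD+PE minus chow, with 5 higher and 3 lower. Pla1a, a phospholipase A1 that acts on phosphatidylserine, averaged 6.70 in HFD+PE against 6.15 in chow livers (difference 0.55, SE 0.15; unadjusted p = 0.0019, limma adjusted p = 0.168). In HFD livers Pla1a averaged 6.16, and its HFD+PE minus HFD difference was 0.54 (SE 0.15; limma unadjusted p = 0.00219, adjusted p = 0.993). Lcat, the plasma enzyme that forms lysophosphatidylcholine as it esterifies cholesterol and so supplies the substrate of autotaxin, was at 0.19 for HFD+PE minus chow (SE 0.08, limma adjusted p = 0.375). Gdpd1, an intracellular enzyme that also turns lysophospholipids into LPA, was at -0.23 for HFD+PE minus chow (SE 0.12). None of these passed.

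Genes that form or remove lysophosphatidylcholine had medians of -0.02 for HFD+PE minus chow and 0.07 for HFD minus chow over 11 genes. The secreted phospholipase gene Pla2g12a was at 0.56 (SE 0.24) and Lyplal1, a relative of the lysophospholipases, at 0.31 (SE 0.11) for HFD+PE minus chow. The lysosomal phospholipase gene Pla2g15 was at -0.48 (SE 0.20) for both fat diets minus chow. Inside the cell, LPA is an intermediate of triglyceride and phospholipid synthesis. The 14 measured genes of that route had medians of -0.01 to 0.03 in the 4 comparisons. The acyltransferase gene Agpat4, at the level of genes of other tissues, was at -0.33 for both fat diets minus chow (SE 0.09, unadjusted p = 0.00168, limma adjusted p = 0.178). Its relatives Agpat1 and Agpat2 were at 0.22 (SE 0.08) for HFD+PE minus HFD and at -0.17 (SE 0.09) for HFD+PE minus chow. Of 9 measured genes for other phosphatases or for proteins related to them (the Plppr genes), 0 had an unadjusted p under 0.05 in any comparison. Their smallest p values belonged to Plpp6, at 0.16 (SE 0.09) for both fat diets minus chow, and to the dim Plppr4 and Plppr5, at -0.18 (SE 0.09) for HFD minus chow and 0.17 (SE 0.10) for HFD+PE minus HFD.

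Downstream of the receptors lie G proteins. Gna12, which encodes a G protein subunit that LPA receptors use, averaged 9.60 in HFD+PE against 10.13 in chow livers (difference -0.53, SE 0.12; unadjusted p = 0.00041, limma adjusted p = 0.111). Gnai2, an inhibitory subunit gene, was at -0.21 (SE 0.10) for both fat diets minus chow and the dim Gnaq at 0.19 (SE 0.09) for HFD minus chow. Among genes known to respond to LPA, Ccn2, a matricellular protein gene induced through YAP, averaged 6.99 in HFD+PE against 7.84 in chow livers (difference -0.85, SE 0.25; unadjusted p = 0.0031, limma adjusted p = 0.203). The chemokine gene Cxcl1 was at -1.18 for both fat diets minus chow (SE 0.52), with -0.60 without chow 2 and -0.05 within the low control set. Vegfa was at 0.18 (SE 0.10), and its most variable probe set gave -0.24.

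In the sphingosine phosphate list the largest difference was in Mfsd2a, known as a transporter of lysophosphatidylcholine, which averaged 9.01 in HFD+PE against 10.03 in chow livers (difference -1.02, SE 0.32; unadjusted p = 0.00605, limma adjusted p = 0.237). In HFD livers Mfsd2a averaged 9.80, and its HFD+PE minus HFD difference was -0.79 (SE 0.32; limma unadjusted p = 0.0265, adjusted p = 0.993). The lyase gene Sgpl1 was at 0.29 (SE 0.14) for HFD+PE minus chow, and the receptor gene S1pr2 at 0.33 (SE 0.19) for both fat diets minus chow. None of the genes named from these lists passed over all genes in limma with n = 5 animals per group.

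**Figure D4:**
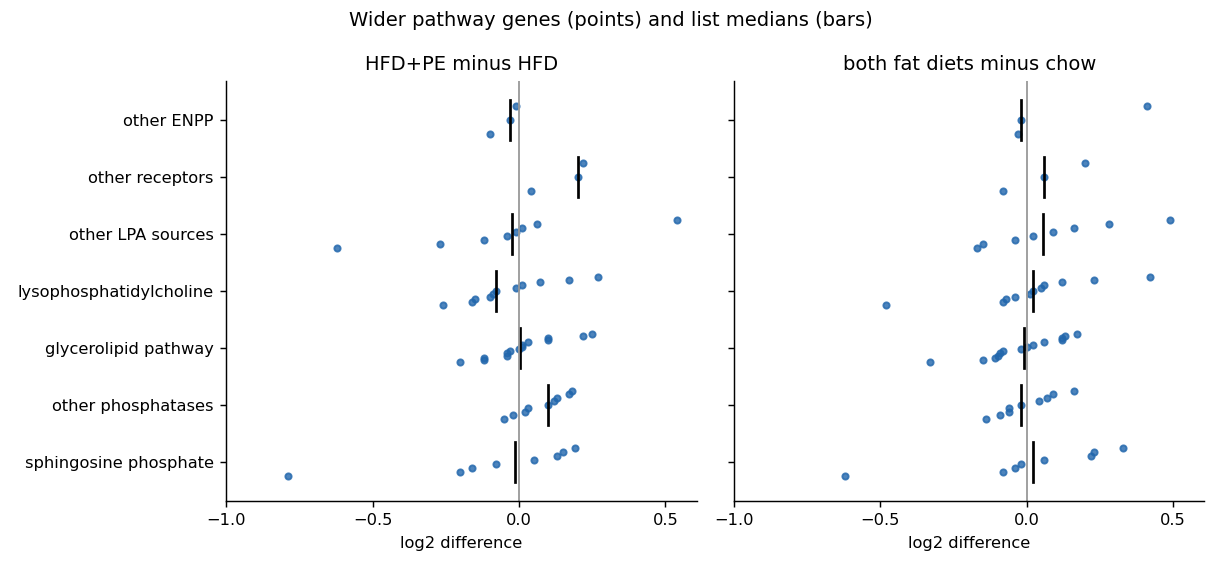
Log2 difference (x axis) of the measured genes of 7 wider lists (rows) for HFD+PE minus HFD and for both fat diets minus chow; points are genes and bars are list medians. Most points lie within 0.5 of 0. The lowest point of the sphingosine phosphate row is Mfsd2a, known as a transporter of lysophosphatidylcholine. It lies at -0.79 for HFD+PE minus HFD and -0.62 for both fat diets minus chow. The next lowest of that row for HFD+PE minus HFD is Sphk1 at -0.20.

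The genes whose levels were most like Enpp2 were ranked by Pearson's r over the 15 animals, among 13979 named genes. The highest were Rnase4, a secreted ribonuclease gene (r = 0.93, Spearman's coefficient 0.91), Lgr5, a receptor of the Wnt pathway (r = 0.92, Spearman's 0.92), Lcmt2 (r = 0.89, Spearman's 0.88), the ubiquitin-conjugating enzyme gene Ube2q2 (r = 0.88, Spearman's 0.85) and the co-chaperone gene Dnajc12 (r = 0.87, Spearman's 0.82). Lgr5 was dim, with a mean of 3.95. The lowest were the tubulin gene Tubb5 (r = -0.90, Spearman's -0.92), Pigl of GPI anchor synthesis (r = -0.87, Spearman's -0.83), the lipid flippase gene Atp10d (r = -0.84, Spearman's -0.80), the heat shock protein gene Hsph1 (r = -0.84, Spearman's -0.85) and Prxl2b (r = -0.83, Spearman's -0.81). The median size of r over all these genes was 0.25. These genes were picked as the extremes of the ranking, and the animals fall into diets that differ in Enpp2, so no p is given.

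With the diet means subtracted, r with Enpp2 was 0.81 for Rnase4, 0.89 for Lgr5 and 0.87 for Lcmt2, and -0.80 for Tubb5, -0.88 for Atp10d and -0.45 for Hsph1. Without the 2 animals farthest from the median of Enpp2, chow 2 and chow 6, r was 0.89 for Rnase4, 0.85 for Lgr5, -0.84 for Tubb5 and -0.91 for Hsph1. Rnase4 averaged 13.61 in HFD+PE, 13.60 in HFD and 13.35 in chow livers, a small span beside the rounding step of 0.1. Among the pathway genes r with Enpp2 ran from -0.60 for Lpar1 to 0.48 for Plpp3. With diet means subtracted these values were -0.37 and 0.03, and without chow 2 and chow 6 they were -0.19 and 0.51. Lpar1 was at the level of genes of other tissues.

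**Figure D5:**
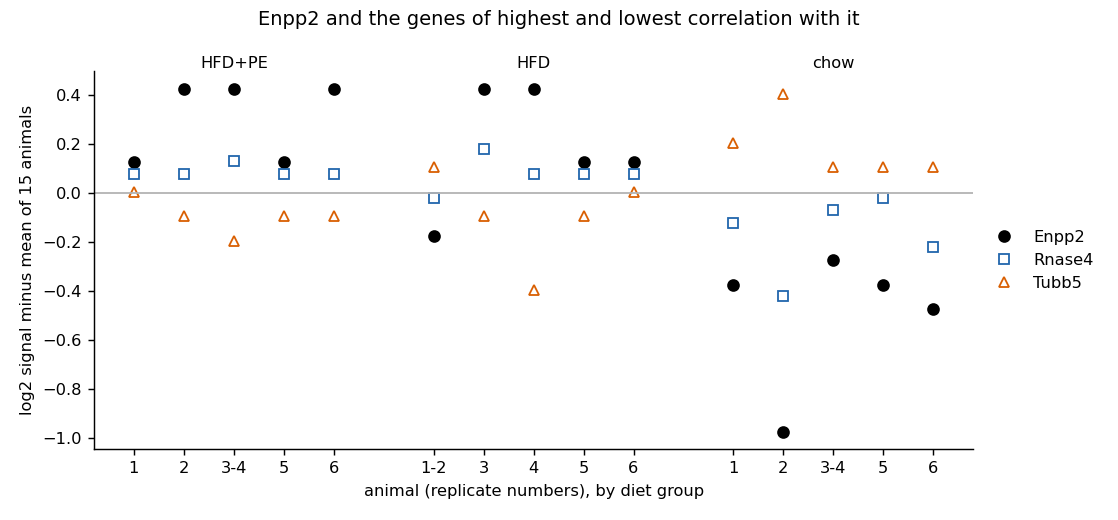
Log2 signal minus the mean of 15 animals (y axis) for Enpp2, Rnase4 and Tubb5 in each animal of the HFD+PE, HFD and chow groups (x axis). Rnase4 lies with Enpp2 above 0 in HFD+PE livers and below 0 in chow livers with a smaller span, Tubb5 is highest in chow 2, where Enpp2 is lowest at 10.8, and HFD 1-2 lies below 0 in Enpp2.

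Markers of other liver cells were read beside these values. In bulk tissue, fewer cells of a type and less RNA per cell cannot be told apart. Macrophage and Kupffer cell markers were lower in 8 of 8 measured genes for HFD+PE minus chow (median -0.82) and for HFD minus chow (median -0.54), and 0 of 8 passed in limma. At an unadjusted p under 0.05 there were 8 of 8 for HFD+PE minus chow, against 11.1% of all genes, and 6 of 8 for HFD minus chow, against 7.65%. Their summed level was 10.68 to 11.66 in HFD+PE, 11.18 to 12.12 in HFD and 11.77 to 12.78 in chow livers, opposite in order to Enpp2. Their part in the Enpp2 difference was not tested.

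Adipocytes are a rich source of autotaxin, and 3 of the 5 measured adipocyte markers, Adipoq, Plin1 and Lep, were at the level of genes of other tissues. Adipoq, the adiponectin gene, averaged 3.81 in HFD+PE, 3.93 in HFD and 3.83 in chow livers. The other 2 were above that level. Cfd, the complement factor D gene, averaged 6.25 in HFD+PE, 6.34 in HFD and 6.76 in chow livers. Cidec, a lipid droplet protein gene, averaged 9.84 in HFD+PE, 9.98 in HFD and 9.96 in chow livers. For HFD minus chow 4 of the 5 were higher and 1 lower, and for HFD+PE minus chow 2 were higher and 3 lower. The summed level of all 5 was 9.81 to 10.28 in HFD+PE, 9.83 to 10.54 in HFD and 9.91 to 10.35 in chow livers. That sum is mostly the signal of Cidec, by far the brightest. The part of adipocyte RNA in the Enpp2 difference was not tested. Sinusoidal endothelial markers, the cell type in which Plpp3 is prominent, were lower in 6 of 6 measured genes for HFD minus chow (median -0.17). Of these, 0 of 6 passed in limma and 1 of 6 had an unadjusted p under 0.05, against 7.65% of all genes. For HFD+PE minus chow 4 of these markers were lower and 2 higher (median -0.14). For HFD+PE minus HFD 1 was lower, 3 were higher and 2 equal. Their summed level was 11.13 to 11.73 in HFD+PE, 11.22 to 11.74 in HFD and 11.55 to 11.79 in chow livers. Their part in the Plpp3 values was not tested. Stellate cell markers had a median of -0.20 for HFD+PE minus chow over 8 genes and a summed level of 10.70 to 11.04, 10.49 to 11.21 and 10.81 to 11.18 in the same 3 groups, with Des and Acta2 at the level of genes of other tissues. Cholangiocyte markers had medians of -0.03 to 0.00 over 5 genes, with Krt7, Krt19 and Cftr at the level of genes of other tissues. For HFD minus chow they ran from -0.89 to 0.33. At an unadjusted p under 0.05, 1 of 5 was higher and 1 of 5 lower, against 7.65% of all genes. Lymphocyte markers had medians of -0.06 to 0.01 over 6 genes, of which 5 were at the level of genes of other tissues. They ran from -0.50 to 0.15 for HFD+PE minus chow. Hepatocyte markers had medians of -0.02 to 0.01 and a summed level of 16.61 to 16.81 over all animals.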

How the data were processed

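RNA was hybridized to 18 Affymetrix rat expression arrays. The signals come from the authors' run of Expression Console with RMA, per the submitters' processing notes, which corrects background, quantile-normalizes and summarizes probe sets. Software versions are not given in the sources. The authors deposited log2 values, 2.2 to 15 in steps of 0.1, for 31099 probe sets. Precision is set by how many animals there were and by this rounding, and an array has no sequencing depth.

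Control probe sets (57) were removed. The 20826 probe sets with 1 gene symbol, updated through RefSeq identifiers, gave 14217 genes, each as its brightest probe set by mean over 18 arrays. The 3 close pairs of arrays were averaged to leave 15 animals, which is an inference from the values, since the labels call all arrays biological replicates. The members and gene lists were chosen with earlier results of these data known. Each comparison used limma 3.58.1 (R 4.3.3) with 1 mean per group, eBayes and Benjamini-Hochberg adjustment over all genes (threshold 0.05, two-sided). Exact permutation over animals can give no p below 0.00794 for 5 against 5 and 0.000333 for 10 against 5. Alternatives covered array pairs, probe set choice, normalization, dim genes, variance model, hybridization controls, array weights and each animal left out.

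All 9 members were named. Of each wider list, the text names genes past the threshold or otherwise up to 3 of lowest unadjusted p, and the 5 genes of highest and the 5 of lowest r with Enpp2. Summed marker levels are log2 of summed linear signals. Summaries of the lists on downstream signalling and its targets are not reported here.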

Additional observations from a re-analysis of the deposited data

Results flagged for a closer look

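In 27 groups of 5 animals (9 genes in 3 diets), 2 held an animal whose gap to its neighbour, divided by the range of the group, was above Dixon's critical value for groups of this size. Chance alone gives about 1 such animal in 20 groups. Enpp2 was at 10.8 in chow 2, where the other chow animals were at 11.3 to 11.5 (ratio 0.714). Chow 2 also had the largest GAPDH 3′ minus 5′ control signal of the chow arrays, 3.2 against 2.1 to 2.8. HFD arrays reached 3.2 and HFD+PE arrays 3.4. The part of RNA position in the Enpp2 value was not tested. Without this animal the Enpp2 difference was 0.68 instead of 0.80 for HFD+PE minus chow and 0.56 instead of 0.68 for HFD minus chow. Plpp2 was at 7.6 in HFD 4, where the other HFD animals were at 7.9 to 8.0 (ratio 0.750). Because values were rounded to 0.1, each ratio rests on few steps.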

How the results depend on the processing

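Across 29 alternatives, no tested gene of the pathway passed an adjusted p of 0.05 in limma. The sign turned in at least 1 alternative for 16 of 36 differences, and Lpar3, at 0.00 for HFD+PE minus HFD, ran from -0.15 to 0.15. Enpp2 stayed higher than chow in every alternative run. It was at 0.56 to 0.77 for HFD minus chow and at 0.68 to 0.85 for HFD+PE minus chow. The alternatives reuse the arrays that chose Enpp2, so this direction was largely set by the choice. HFD+PE minus HFD in Enpp2 ran from 0.03 to 0.20. The cause of each turned sign was not tested. For HFD minus chow, Enpp1 was at 0.27 with 18 arrays, 0.26 with the control set as a covariate and 0.44 within the low set. With the same covariate and within the low set, Enpp3 was at -0.03 and -0.06 for HFD minus chow and at -0.05 and -0.07 for both fat diets minus chow, and Plpp1 was at -0.01 for HFD minus chow with the covariate. Within the low set, both fat diets minus chow was 0.04 for Enpp1, 0.08 for Lpar6 and -0.03 for Plpp1, and HFD+PE minus chow was -0.03 for Lpar3, -0.06 for Plpp1 and 0.08 for Enpp4. Within the high set, an alternative chosen after seeing the data, HFD+PE minus chow was 0.03 for Enpp3, -0.23 for Lpar6 and -0.02 for Plpp1. With array weights, Lpar3 was at -0.02 for HFD minus chow, -0.11 for HFD+PE minus chow and -0.06 for both fat diets minus chow, Lpar6 was at 0.01 for both fat diets minus chow and Enpp4 at 0.01 for HFD+PE minus chow. With the mean of probe sets, Lpar1 was at 0.01 for HFD+PE minus HFD and Vegfa at -0.03 for both fat diets minus chow (-0.24 with the most variable probe set). With 18 arrays Plpp1 was at -0.02 for HFD+PE minus chow.

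Leaving out 1 animal at a time, HFD minus chow ran from -0.31 to 0.23 for Enpp1, from -0.03 to 0.15 for Enpp3 and from -0.06 to 0.06 for Lpar3. HFD+PE minus chow ran from -0.12 to 0.05 for Enpp3, from -0.14 to 0.16 for Lpar3, from -0.01 to 0.27 for Lpar6, from -0.04 to 0.10 for Plpp1 and from -0.06 to 0.02 for Enpp4. Both fat diets minus chow ran from -0.07 to 0.10 for Enpp3, from -0.07 to 0.08 for Lpar3, from -0.10 to 0.04 for Lpar6 and from -0.11 to 0.02 for Plpp2. HFD+PE minus HFD ran from -0.14 to 0.01 for Plpp3.

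The replicate numbers do not pair animals in the labels, and same-numbered arrays deviated together at r over 0.1 in 4 of 18 pairs (-0.31 to 0.19). With the replicate block on 18 arrays, Enpp1 was at 0.27 for HFD minus chow and Plpp1 at -0.02 for HFD+PE minus chow, and no tested pathway gene passed.

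Over all genes, 0 passed as reported. For HFD+PE minus chow 145 passed with 18 arrays, 119 with the replicate block, 4 with array weights, 3 within the low set and 0 to 26 with 1 animal left out (26 without HFD+PE 3-4). For both fat diets minus chow 49, 45, 3 and 1 passed in the same alternatives, 4 after a new quantile normalization, 4 with a trended robust variance and 0 to 23 with 1 animal left out (23 without HFD 1-2). For HFD minus chow 1 passed within the low set and 1 without HFD 1-2, and for HFD+PE minus HFD 2 passed without HFD+PE 3-4. Among the genes named from the lists, Gna12 passed for HFD+PE minus chow with 18 arrays (adjusted p = 0.0246) and with the block (adjusted p = 0.0427), and Ccn2 with 18 arrays (adjusted p = 0.0365). These alternatives count as separate animals the arrays of each pair taken here to be 1 animal.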
